A study of Mus musculus with 6 samples.

Results

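A set of 7 genes described elsewhere as direct targets of the microRNA miR-214, namely Ezh2, Ctnnb1, Sufu, Mfn2, Xbp1, Atf4 and Bcl2l11, was followed in cystic mouse kidneys with and without miR-214. They were taken by gene symbol, and all 7 were found among the 20138 genes of the authors' deposited table. Kidneys labelled Pkd2-miR-214-KO here came from 3 mice of genotype Pkhd1Cre; Pkd2 F/F; miR-214null. Kidneys labelled Pkd2-KO came from 3 mice of genotype Pkhd1Cre; Pkd2 F/F. All animals were at postnatal day 35. Both groups therefore share floxed Pkd2 alleles and a Cre transgene driven by the Pkhd1 promoter, which is active mainly in kidney tubules, so Pkd2 is deleted in part of the kidney cells of either group, and no kidney with intact Pkd2 was analysed here. The labels do not give the zygosity of the miR-214 null allele, the sex or the litters. Whole frozen kidneys were sequenced, so a change in the share of a cell type and a change in RNA per cell cannot be told apart.

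MicroRNAs guide Argonaute proteins to messenger RNAs, mostly through pairing of the seed, bases 2 to 8 of the microRNA, with the 3′ untranslated region (UTR). Pairing lowers translation of the message, its stability, or both. Loss of a microRNA can therefore raise the RNA of its targets, while an effect on translation alone leaves RNA levels as they were. miR-214 is cut from the noncoding transcript Dnm3os and is known from studies of fibrosis, muscle and tumours, and the 7 genes were proposed as its targets in various tissues. The comparison asks whether their RNA differed between Pkd2-deficient kidneys without and with miR-214. Protein was not part of the deposited table.

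The mature strands of the hairpin are shown first because the searches below rest on their seeds, which are in capitals. They are printed 5′ to 3′ from RefSeq on GRCm38.p6, together with the other mouse microRNA of the 1738 in that table that has the seed of miR-214-3p.
miR-214-3p, chr1:162223438-162223459, plus strand: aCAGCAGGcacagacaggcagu
miR-761, chr4:109017669-109017690, plus strand: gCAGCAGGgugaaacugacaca
miR-214-5p, chr1:162223397-162223418, plus strand: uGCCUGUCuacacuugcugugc
Between the genotypes the Mir761 locus differed by -0.02 ± 0.57 (log2 fold and SE, the authors' deposited table).

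Perfect matches to the seed of miR-214-3p, the letters CCTGCTG on the transcript strand, were sought in the 3′ UTR of each gene, taking the longest one annotated. At least 1 match was found in 5 genes, and 8 matches in all. They are printed as 23 bases of the transcript (GENCODE M21, GRCm38), 15 before the match, the 7 matched bases in capitals and 1 after, the base that faces base 1 of the microRNA.
Ctnnb1, chr9:120960422-120960444, plus strand: ccaaagttgttgtaaCCTGCTGt
Sufu, chr19:46487866-46487888, plus strand: aggaatgtctaaactCCTGCTGg
Mfn2 site 1, chr4:147874342-147874364, minus strand: ctgcccctgaagcctCCTGCTGc
Mfn2 site 2, chr4:147874277-147874299, minus strand: ctgcccctgaagcctCCTGCTGc
Xbp1, chr11:5525089-5525111, plus strand: gagaccaccttcttgCCTGCTGg
Bcl2l11 site 1, chr2:128161763-128161785, plus strand: tgagagaaatattatCCTGCTGc
Bcl2l11 site 2, chr2:128161888-128161910, plus strand: tggctaccgtccccaCCTGCTGt
Bcl2l11 site 3, chr2:128162072-128162094, plus strand: aaatggttttgtcttCCTGCTGa
The 2 Mfn2 matches start 65 bases apart and have the same 23 letters. Site 3 of Bcl2l11 is the 1 match of the 8 that is followed by an A, the base that extends a seed match to 8 letters.

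None of the 7 genes passed the test for a difference between the genotypes. In the authors' deposited table the adjusted p was 1 for each of them, and 0 of 7 passed 0.05, against 25 of the 20138 genes (0.124%). Without adjustment, too, 0 of 7 had a p under 0.05, against 4.82% of all genes. The approximate 95% interval of each fold held 0. Positive log2 folds numbered 5 and negative ones 2, beside 49.8% positive over all genes, and the median of the 7 was 0.07, beside a median of 0.00 over all genes. Fold changes are fitted values of the authors, with 3 animals per genotype behind each, and no values per animal were analysed here. Positive values mean higher RNA in Pkd2-miR-214-KO. The SE is approximate, the size of the log2 fold over the square root of its likelihood ratio.

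**Figure D1:**
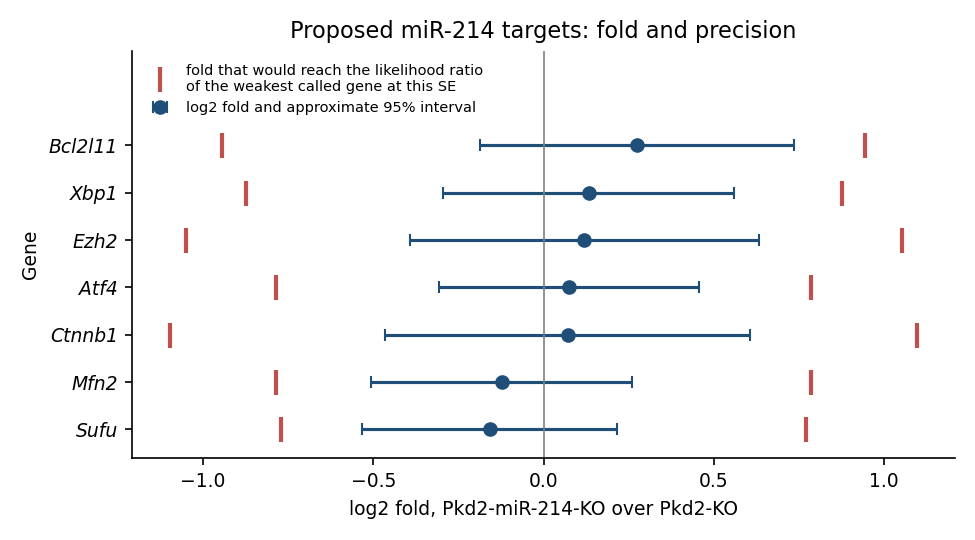
The log2 fold of each proposed target, Pkd2-miR-214-KO over Pkd2-KO, with its approximate 95% interval (n = 3 animals per genotype). All 7 intervals cross 0, and the red marks show the log2 fold at which a gene of that SE would have had the likelihood ratio of the weakest gene past the threshold.

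The deleted locus was read first. Mir214 fell in Pkd2-miR-214-KO kidneys, with a log2 fold of -7.62 ± 1.08 (SE) and an adjusted p of 1.34e-08 from the edgeR likelihood ratio test in the authors' deposited table, at a mean of -1.83 log2 CPM. The sign of this value set the direction of all folds, so it is no independent check of the labels. Reads over a hairpin also do not measure the mature microRNA. Dnm3os had -1.23 ± 0.37 (adjusted p = 0.213, edgeR likelihood ratio test) in the authors' deposited table. Mir214 shares 110 exonic bases with Dnm3os on the same strand, so reads there can come from either, and their values need not be independent. Pkd2, deleted in both groups, had -0.11 ± 0.23 there.

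Markers of kidney and of other cell types were read beside these genes. The 12 kidney markers had means in the authors' deposited table that ran from 4.74 to 12.47 log2 CPM. Of these 12 log2 folds 9 were negative, with a median of -0.46 and none past the threshold. All 8 liver markers had positive log2 folds (median 2.05, range 0.19 to 6.64, 0 past the threshold and 5 with an unadjusted p under 0.05 in the authors' deposited table). Of 13 immune markers measured, 7 had positive and 6 negative log2 folds in the authors' deposited table (median 0.13), and Cd163, a macrophage scavenger receptor, was the 1 past the threshold. An unadjusted p under 0.05 was found for 6 of the 13, all of them higher in Pkd2-miR-214-KO. Ngp, a neutrophil granule gene, came next to Cd163 in p (6.63 ± 1.75, at a mean of -0.48 log2 CPM). The B cell genes Ms4a1 (4.23 ± 1.14) and Cd79a (3.77 ± 1.11) followed in the authors' deposited table. Negative log2 folds were those of the macrophage genes Emr1 (-0.37 ± 0.27) and Csf1r (-0.03 ± 0.22), and of Nkg7, Cd8a, Cd3e and Ptprc there. Xist, expressed from the inactive X chromosome of female cells, rose by 10.21 ± 2.36 on the log2 scale (adjusted p = 0.0168, edgeR likelihood ratio test, the authors' deposited table). Its mean was 9.02 log2 CPM. The labels do not give the sex, and Xist differed between the groups, so effects of sex and of genotype cannot be told apart for any gene here. The part of these differences in the folds of the 7 genes, the markers and the pathway lists was not tested.

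Bcl2l11 had the largest fold of the 7. The gene encodes BIM, a BH3-only protein that triggers apoptosis by binding the pro-survival BCL2 proteins, and was reported as a miR-214 target in heart muscle. It lies on chromosome 2 from 128126038 to 128162547. By the authors' deposited table its log2 fold was 0.28 ± 0.24 (SE), a fold of 1.21 with an interval of 0.88 to 1.67, at a mean of 5.00 log2 CPM. It was rank 3908 of 20138 by p-value (p = 0.242 before adjustment, edgeR likelihood ratio test), and 37.7% of all genes had a larger fold in size in the authors' deposited table. Among 1479 genes within 0.25 log2 CPM of it that share was 16.4%. Bcl2l11 also had the most matches, 3, starting at bases 3449, 3574 and 3758 of a 3′ UTR of 4218 bases. Among 1289 genes with a 3′ UTR of 0.8 to 1.25 times that length, 46.2% had at least 1 match. The matches lie in the far end of the UTR, and 1 of the 5 annotated 3′ UTRs of the gene contains them.

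Xbp1 and Atf4 encode transcription factors of the stress response of the endoplasmic reticulum. XBP1 becomes active when the sensor IRE1 removes a short intron from its RNA, and ATF4 is made when phosphorylation of eIF2alpha shifts translation. The deposited gene values cannot show either step. Xbp1 (chromosome 11, 5520659 to 5525893) differed by 0.13 ± 0.22 (log2 fold and SE) at 7.30 log2 CPM in the authors' deposited table, a fold of 1.10 with an interval of 0.82 to 1.47. Its match starts at base 200 of a 3′ UTR of 989 bases, nearer to the stop codon than any other match here, and 1 of its 3 annotated 3′ UTRs has it. Whether this match still lies in the 3′ UTR once IRE1 has removed the intron was not examined. Atf4 (chromosome 15, 80255184 to 80257541) had 0.07 ± 0.20 at 7.13 log2 CPM in the authors' deposited table, a fold of 1.05 with an interval of 0.81 to 1.37. Its annotated 3′ UTR is 81 bases long and has 0 matches, and 2.23% of 403 genes with a 3′ UTR of similar length had 1.

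Ezh2 encodes the catalytic subunit of Polycomb repressive complex PRC2, which methylates histone H3 at repressed genes, and was reported as a miR-214 target in muscle. It lies on chromosome 6 from 47530139 to 47595341. The authors' deposited table gave Ezh2 a log2 fold of 0.12 ± 0.26 (SE) at 4.21 log2 CPM, a fold of 1.09 with an interval of 0.76 to 1.55. All 4 annotated 3′ UTRs of Ezh2 are 402 bases long and hold 0 matches, which says only that these letters are not in that window. Of 1608 genes with a 3′ UTR of similar length 9.83% had a match. Ezh2 shares 174 exonic bases with Gm26625, a noncoding gene on the other strand. The letters do occur in the coding sequence, in exon 7 of the transcript searched, followed by an A. A coding match of the same kind was found in exon 2 of Bcl2l11. None was found in the annotated coding sequence of the transcript searched for each of the other 5 genes, and no other reading frame was covered. Both are shown because they are the coding matches found in the transcripts whose 3′ UTR was searched. How often the coding sequences of all genes hold these letters was not counted, so nothing here says whether such matches are unusual.
Ezh2 coding match, chr6:47552452-47552474, minus strand: ccacctcggaaatttCCTGCTGa
Bcl2l11 coding match, chr2:128128678-128128700, plus strand: ggtggacaattgcagCCTGCTGa

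Ctnnb1 encodes beta-catenin, which joins cadherins to the cytoskeleton and carries the canonical Wnt signal to the nucleus. By the authors' deposited table it had a log2 fold of 0.07 ± 0.27 (SE) at 9.67 log2 CPM, a fold of 1.05 with an interval of 0.72 to 1.52. Its single match starts at base 920 of a 3′ UTR of 990 bases, 64 bases before the end, and was present in 2 of 3 annotated 3′ UTRs. At that UTR length 17.9% of genes had a match. Ctnnb1 (chromosome 9, 120929216 to 120960507, plus strand) shares 759 exonic bases with Ulk4 on the other strand and 23 with Mir7090 on its own. Ulk4 had -0.22 ± 0.34 in the authors' deposited table, and its reads can be told from those of Ctnnb1 only if the counting used strand, which is not stated in the sources used here.

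Sufu and Mfn2 had the 2 negative folds. Sufu (chromosome 19, 46396896 to 46488804) encodes the suppressor that holds GLI transcription factors inactive in hedgehog signalling, and its control by miR-214 was described in zebrafish. The authors' deposited table gave it a log2 fold of -0.16 ± 0.19 (SE) at 5.82 log2 CPM, a fold of 0.90 with an interval of 0.69 to 1.16. The match starts at base 1937 of a 3′ UTR of 2860 bases and occurs in 2 of 4 annotated 3′ UTRs. Mfn2 (chromosome 4, 147873599 to 147904704, minus strand) encodes mitofusin 2, a GTPase of the outer mitochondrial membrane that fuses mitochondria. It had -0.12 ± 0.20 at 7.03 log2 CPM in the authors' deposited table, a fold of 0.92 with an interval of 0.70 to 1.20. Both of its matches, at bases 1040 and 1105 of 1790, lie in 3 of 4 annotated 3′ UTRs.

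The SEs of 4 of the 7 genes were low for their expression. Among genes within 0.25 log2 CPM, the SE lay at percentile 2.99 for Ctnnb1, 6.47 for Atf4, 10.7 for Mfn2 and 15.9 for Sufu, against 39.1 for Xbp1, 58.6 for Ezh2 and 62.3 for Bcl2l11, by the authors' deposited table. The SE ran from 0.19 for Sufu to 0.27 for Ctnnb1, and the median SE of genes within 0.25 log2 CPM was 0.21 for Sufu and 0.31 for Ctnnb1 in the authors' deposited table. The weakest of the 25 genes past the threshold had a likelihood ratio of 16.1. At the SE of each of the 7 genes that ratio corresponds to a fold between 1.71 for Sufu and 2.14 for Ctnnb1, so smaller changes would not have passed at these errors. The highest upper bound was that of Bcl2l11, a change of 66.6%, and the lowest lower bound that of Sufu, a change of -31.0%, both on the approximate 95% interval. The folds of Bcl2l11 and Sufu, the highest and the lowest of the 7, have intervals that overlap each other, so the order of the 7 is not resolved beyond their error.

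**Figure D2:**
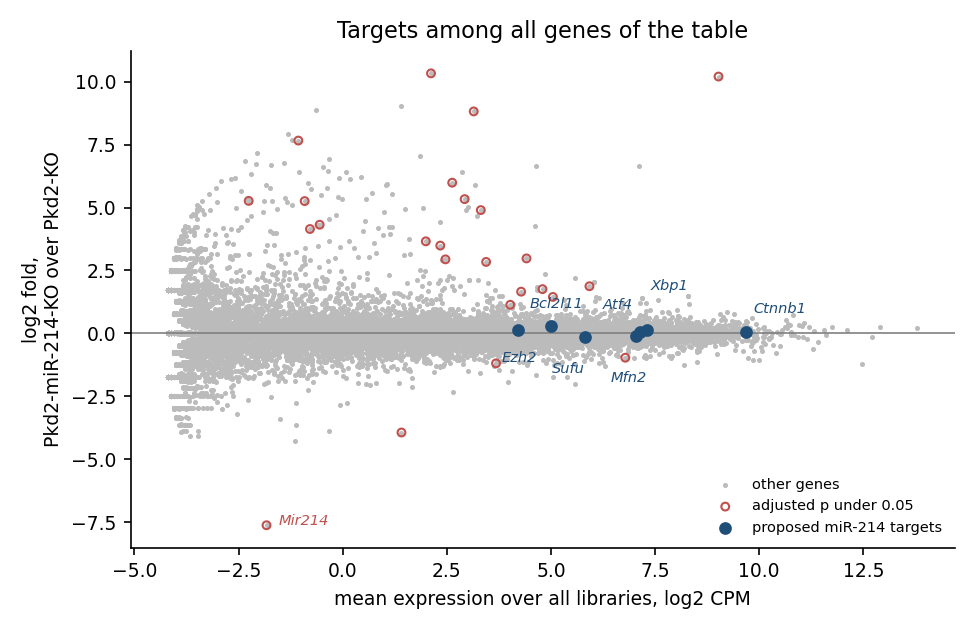
The log2 fold, Pkd2-miR-214-KO over Pkd2-KO, of all 20138 genes against their mean expression in log2 CPM, with the 25 genes past the adjusted threshold ringed. The 7 proposed targets (filled points) lie between -0.16 and 0.28, inside the band of the other genes, and Mir214 lies at -7.62.

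The share of all genes with a match gives the scale for the matches in the 7. Of 16889 genes matched by symbol to an annotated 3′ UTR, 3598 (21.3%) had at least 1 match of 7 letters, and 5.21% had 2 or more. At least 1 was present in 5 of the 7 genes, and Sufu and Mfn2, with UTRs of lengths at which 36.1% and 27.2% of genes have a match, are among these. The 7 were taken as reported targets, and a seed match may be part of why they were reported. Their share of matches is therefore no independent result. The 3 genes with matches and positive folds were Bcl2l11, Xbp1 and Ctnnb1. The median log2 fold of the genes with matches was 0.07 and that of the pair without, Ezh2 and Atf4, 0.10 (the authors' deposited table). The 6 letters CTGCTG lie within the 7 letters, so these 5 genes had to hold them too. No further gene of the 7 did, while 48.9% of all genes had this shorter match. None of the 7 had the letters GACAGGC, the match to the seed of miR-214-5p, which 9.41% of all genes had.

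**Figure D3:**
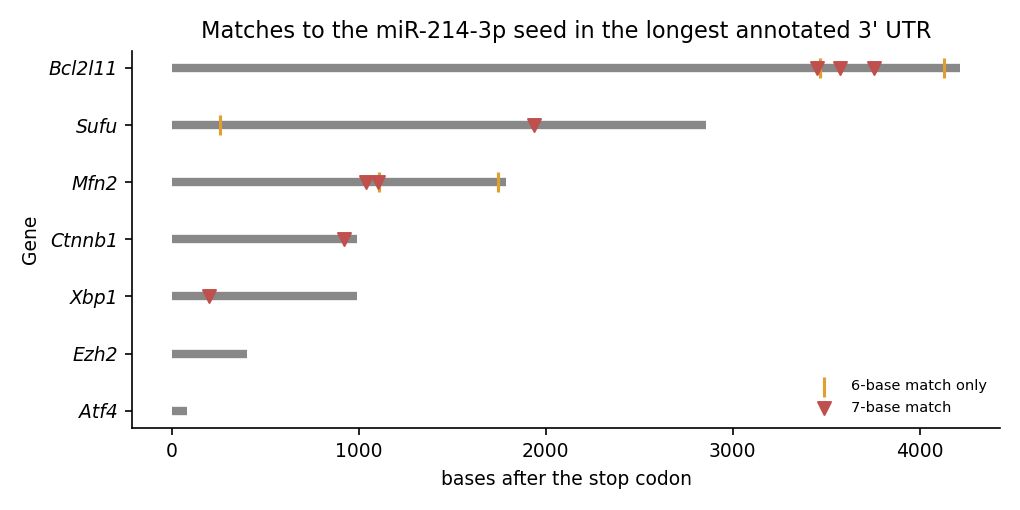
The longest annotated 3′ UTR of each gene, drawn to scale in bases after the stop codon, with matches of 7 letters to the miR-214-3p seed (triangles) and matches of 6 letters alone (ticks). Bcl2l11 has 3 triangles near the far end of 4218 bases, and Ezh2 and Atf4 have none.

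Across all genes, median folds were set beside the number of matches. Among genes with a mean of at least 0 log2 CPM, the authors' deposited table gave a median log2 fold of -0.040 with 3 or more matches (208 genes), -0.027 with 2 (585 genes), -0.013 with 1 (2328 genes) and -0.0020 with none (10230 genes). The medians were thus lower with more matches, by small amounts, and how well they are resolved was not tested. Genes with more matches also had longer 3′ UTRs, with a median of 3346.5 bases for 3 or more and 1895.5 for 1. Within 3 groups of equal size by UTR length, the median of genes with a match minus that of genes without was -0.0051 for the shortest UTRs, -0.031 for the middle group and -0.038 for the longest. A lower median was also seen for the seed of miR-214-5p. With at least 1 match to it the median was -0.021 (1379 genes), and with none -0.0037 (11972 genes), at a mean of at least 0 log2 CPM. These values are a description, with no test.

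**Figure D4:**
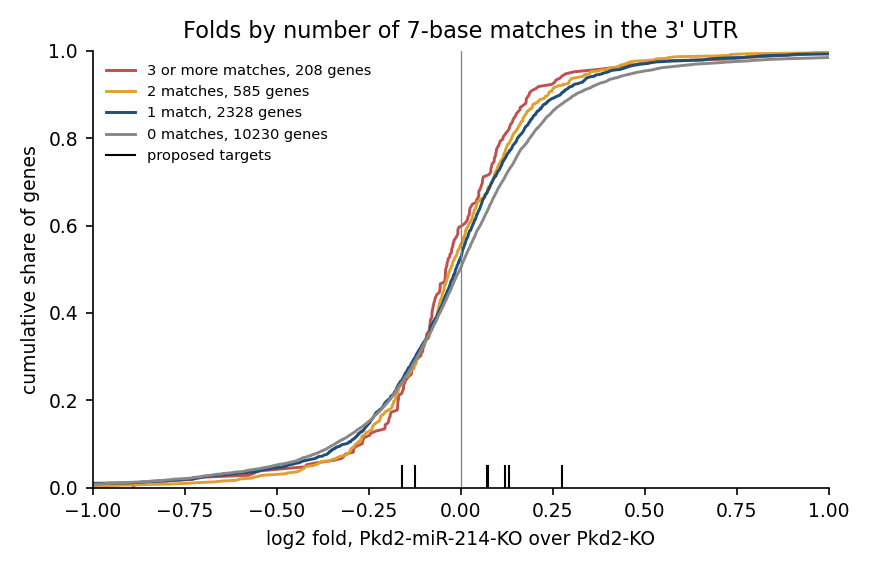
Cumulative share of genes by log2 fold, Pkd2-miR-214-KO over Pkd2-KO, for genes of at least 0 log2 CPM with 3 or more, 2, 1 or 0 matches to the miR-214-3p seed. The medians run from -0.040 with 3 or more matches to -0.0020 with none, and black ticks mark the 7 proposed targets.

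The genes around the 7 in their pathways were counted in 8 lists. Beside the 7, they held 150 genes, of which 81 had positive and 69 negative log2 folds, with a median of 0.02. With adjustment over all genes, 0 of the 150 passed the threshold, and 4 (2.67%) had an unadjusted p under 0.05 in the authors' deposited table. Among all genes these shares were 0.124% and 4.82%, and 49.8% of the log2 folds were positive. The genes named are those with the smallest p-values of each list.

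Genes of PRC2, of its partners and of demethylases that remove its mark were mostly slightly positive. Of 13 measured, 11 log2 folds were positive, with a median of 0.18 and 0 past either threshold. Ezh1, the other catalytic subunit, had 0.30 ± 0.22 (SE), and Suz12, a core subunit, had 0.22 ± 0.22 in the authors' deposited table. Mtf2, a partner that helps recruit the complex, had 0.23 ± 0.23, and Kdm6a, a demethylase that removes the mark, 0.40 ± 0.31 in the authors' deposited table.

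The beta-catenin lists pointed to neither side as a whole. Among 22 genes of the complex and its cofactors, 15 log2 folds were positive (median 0.04) and 0 had an unadjusted p under 0.05. Lef1, a transcription factor that binds beta-catenin, had 0.61 ± 0.54 (SE), Btrc, which marks beta-catenin for degradation, -0.19 ± 0.19, Pygo1 -0.36 ± 0.47 and the cadherin gene Cdh1 0.17 ± 0.27 in the authors' deposited table. Among 16 target genes of the pathway, 11 log2 folds were negative (median -0.16). Wisp1 (-0.64 ± 0.28, adjusted p = 0.772, edgeR likelihood ratio test) and the Wnt antagonist gene Dkk1 (-1.31 ± 0.63, adjusted p = 0.947, at -0.98 log2 CPM) had an unadjusted p under 0.05 in the authors' deposited table, and neither passed after adjustment. Bmp4, a secreted growth factor, had -0.34 ± 0.22, and Nkd1, a feedback inhibitor of Wnt signalling, had -0.32 ± 0.24 in the authors' deposited table.

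Hedgehog genes had 14 of 20 negative log2 folds and a median of -0.16, with 0 past either threshold. The ligand gene Shh had 0.90 ± 0.52 (SE), Foxf1, a target in mesenchyme, 0.92 ± 0.54 and Kif7, a regulator of GLI proteins in cilia, -0.45 ± 0.34 in the authors' deposited table. Genes of mitochondrial fusion and fission had 8 positive and 8 negative log2 folds of 16 (median 0.02), again with 0 past either threshold. Mtfp1, which promotes fission, had -0.56 ± 0.37, Gdap1 1.04 ± 0.79 at -2.64 log2 CPM, the inner membrane protease gene Yme1l1 0.23 ± 0.24 and Park2, which encodes the ubiquitin ligase parkin, -0.24 ± 0.32 in the authors' deposited table.

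Genes of the unfolded protein response stayed near 0. Of 28 sensors and XBP1 targets, 12 had positive and 16 negative log2 folds, with a median of -0.01, a range of -0.29 to 0.34 and 0 past either threshold. Serp1, a stabiliser of membrane proteins, had 0.34 ± 0.26 (SE), the coat subunit gene Sec24d -0.22 ± 0.20, Herpud1, of endoplasmic reticulum degradation, -0.29 ± 0.29 and the chaperone gene Dnajb9 0.24 ± 0.26 in the authors' deposited table. Around ATF4, 19 of 26 log2 folds were positive, with a median of 0.09, and 2 genes had an unadjusted p under 0.05. These were Ddit4, an inhibitor of mTOR signalling (0.83 ± 0.34, adjusted p = 0.725, edgeR likelihood ratio test), and Ddit3, which encodes CHOP (0.80 ± 0.41, adjusted p = 1) in the authors' deposited table. Slc7a11, the cystine transporter gene, had 0.85 ± 0.47, and Phgdh, of serine synthesis, -0.37 ± 0.20 in the authors' deposited table.

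In the BCL2 family 12 of 19 log2 folds were positive, with a median of 0.14 and 0 past either threshold. Pmaip1, which encodes the BH3-only protein NOXA, had 0.38 ± 0.21 (SE), and the pro-survival gene Mcl1 had 0.36 ± 0.24 in the authors' deposited table. Bcl2a1b had 0.59 ± 0.38 there, a value that is uncertain because near-identical copies of the gene can share its reads. A further 20 genes proposed elsewhere as miR-214 targets had 12 positive and 8 negative log2 folds, a median of 0.05 and 0 past either threshold. Camk2d, a calcium-dependent kinase, had 0.32 ± 0.22, the stress kinase gene Mapk8 0.25 ± 0.21, Ppif, which encodes cyclophilin D of mitochondria, -0.21 ± 0.21 and the glycosyltransferase gene Galnt7 0.16 ± 0.21 in the authors' deposited table. Of these 20 genes 14 had a match of 7 letters in the 3′ UTR, with a median log2 fold of 0.06, and the 6 without had one of -0.03. The share over all genes was 21.3%, but these 20 too were taken as reported targets, so their matches are no independent result.

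**Figure D5:**
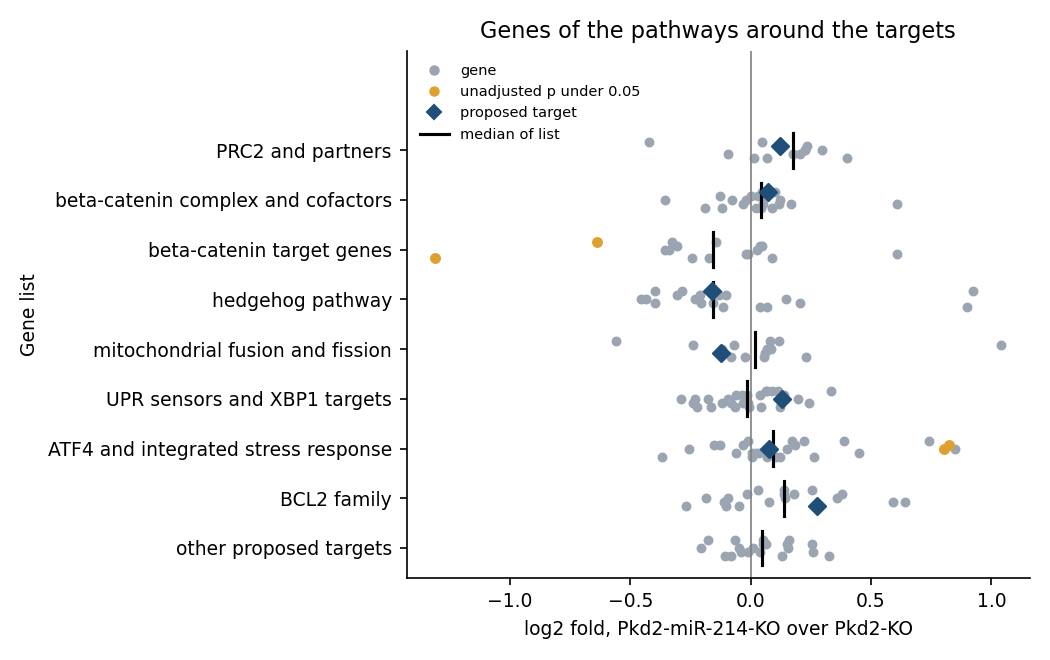
The log2 fold, Pkd2-miR-214-KO over Pkd2-KO, of each gene in 8 pathway lists and in the list of 20 further proposed targets, with list medians as black bars and the 7 proposed targets as diamonds. Most points lie within 0.50 of 0, and the 4 orange points had an unadjusted p under 0.05.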

How the data were processed

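Kidney RNA of 6 mice, 3 per genotype, was sequenced after Qiazol extraction with a stranded total RNA kit, per the labels' protocols, whereas the design text names polyA RNA. Tools listed in the submitters' processing notes are TopHat2 2.0.12 and edgeR, with the build mm10. Per the file headers, the authors' deposited table holds, per gene symbol, a log2 fold, a mean log2 CPM, a likelihood ratio (a score on 1 degree of freedom), and p-values before and after adjustment. The chi-square tail of the likelihood ratio and the Benjamini-Hochberg adjustment over 20138 genes gave the deposited p-values and adjusted p-values to within 6.25e-15 and 5.1e-14. Values per library were not analysed here, so depth is unknown and no SD is given. Filters, normalization and strand handling are not stated there.

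The approximate SE was the size of the log2 fold over the square root of the likelihood ratio, and the interval 1.96 SE on either side. It is poor for genes of low count. CPM is not scaled by gene length, so levels are not compared between genes. Seed matches were searched on the transcript strand of complete protein-coding transcripts of GENCODE M21 (GRCm38, the assembly of mm10), in the longest 3′ UTR per symbol. The adjustment, the SE and the search were tested on simulated data. Genes named from lists were the up to 4 of smallest p per list; 1 gene under this rule is not reported here. The members and lists were chosen with earlier results of these data known. Alternatives changed the genes adjusted over, the reference distribution, the centring, the match length, the UTR choice and the strand of the hairpin. Work was done with scipy 1.17.1, numpy 2.4.6, pandas 2.3.3 and matplotlib 3.10.9 under Python 3.11.15. The labels give no litters or dates, and nothing says whether the p-values reflect more than the spread between these animals.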

Additional observations from a re-analysis of the deposited data

How the results depend on the processing

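The count of the 7 proposed targets past the adjusted threshold stayed 0 when p-values were adjusted over genes of at least 0 or 2 log2 CPM (19 and 17 genes past it in all). Reading the likelihood ratio against F with 1 and 4 degrees of freedom can only raise p-values, so it could not move this count. Under it 0 of all genes passed. The t quantile on 4 degrees of freedom can only widen the intervals, so the count of intervals without 0 had to stay 0. Centring the folds on the median of all genes moved none of them, because that median was 0. The count also stayed 0 with folds centred on the median of genes of at least 0 log2 CPM. The larger of these medians in size was -0.0022, and centring turned no sign among the 7. The count of genes with a match was 5 with all annotated 3′ UTRs and with 6 letters, settings under which it could not fall. It was 1 with the 8-letter match and 0 with miR-214-5p. Among all genes, 48.9% had the 6-letter match, 5.16% the 8-letter match and 9.41% the match to miR-214-5p. The median log2 fold of genes with a match minus that of genes without was -0.015, and became -0.0078 with the 8-letter match and -0.025 with 2 or more matches. For matches to miR-214-5p in place of miR-214-3p it was -0.017, a difference of similar size. The pathway count stayed 0 when adjusted over genes of at least 0 log2 CPM. Leaving out animals was not run, because values per animal were not analysed here. No paired analysis was possible because the labels pair no animals and the deposited values are per comparison. Depth is unknown, so what it limits cannot be stated.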

Other observations

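Matches were also counted in the genes past the adjusted threshold. Of the 25, 22 had an annotated 3′ UTR, and 2 of these (9.09%) had the 7-letter match to miR-214-3p, Cyp1a1 and Prune2, which were picked out after their values were seen. Both fell in Pkd2-miR-214-KO, with log2 folds of -3.94 ± 0.56 (SE) for Cyp1a1, a cytochrome P450, and -1.19 ± 0.28 for Prune2 in the authors' deposited table. The match to miR-214-5p occurred in 2 of the 22, Prune2 and Lyve1, a hyaluronan receptor gene that rose by 2.84 ± 0.56 on the log2 scale in the authors' deposited table. Over all 16889 genes the shares were 21.3% for miR-214-3p and 9.41% for miR-214-5p, and the differences from these shares were not tested.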
